A study of Homo sapiens with 17 samples.

Results

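A set of 95 genes was low in a labelled NSD1 knockout of Cal27 cells and back near or above its parental level when the same knockout was cultured with the EZH2 inhibitor EPZ-6438. Cal27 is a line of squamous cell carcinoma of the tongue. EPZ-6438 (tazemetostat) inhibits EZH2, the catalytic subunit of the Polycomb complex PRC2. RNA was counted in 2 libraries of the labelled knockout with EPZ-6438 (the treated knockout), 2 of the labelled knockout with DMSO, the solvent control (the DMSO knockout), and 2 of Cal27 with DMSO (DMSO Cal27). A separate set without treatment held 1 library each of the labelled knockout, of SKN3 and of BICR78, which are other head and neck cancer lines, and of Cal27. The labels give neither dose nor time, and nothing says that replicates came from separate cultures, so spreads between them may be technical. The knockout is 1 labelled line, so the clone and the loss of NSD1 cannot be told apart, and no parental library with EPZ-6438 was analysed here.

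The members were chosen on these same values. Counts were divided by the library total and scaled to 1e6 to give CPM, and the 2 libraries of a group were averaged. A gene entered if its symbol had no dot and it reached 3 CPM in DMSO Cal27, at most 1/3 of that level in the DMSO knockout and at least 2/3 of it in the treated knockout. Of 34496 gene rows, 10975 met the first conditions, 191 of these (1.74%) also met the second, and 95 (0.866%) met all. The other 96 stayed below 2/3. The low level, the return and every comparison among these 6 libraries belong to the rule, so they are described with no test. Of the members 16 belong to the interferon-stimulated, MHC or S100 lists and 79 do not. All 95 passed the low-count filter of the fit across genes.

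NSD1 adds methyl groups to lysine 36 of histone H3, and the dimethyl mark it leaves occupies broad stretches between and within genes. PRC2 methylates lysine 27 of the same histone, and its trimethyl mark accompanies silent genes. Methylation of lysine 36 hinders PRC2 on the same histone tail, so the marks tend to occupy separate domains. In squamous epithelium, Polycomb is known for holding back differentiation and defence genes.

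NSD1 RNA was counted at 162 and 151 CPM in the treated knockout, 165 and 164 CPM in the DMSO knockout, and 110 and 111 CPM in DMSO Cal27, so the gene counts do not check the knockout label. The 6 libraries held 11.7 to 15.5 and the 4 untreated libraries 17.6 to 21.7 (total counts in units of 1e6). The 8 squamous markers summed to 2565 and 2595 CPM in the treated knockout, 3999 and 4146 CPM in the DMSO knockout and 8550 and 8443 CPM in DMSO Cal27, and none was at 0. KRT5 was the largest part in each library, and not every marker followed the sum. KRT6A and KRT17 were higher in the treated than in the DMSO knockout. CDH1 and EPCAM were higher in the DMSO knockout than in DMSO Cal27. The sum of 6 fibroblast markers moved the way the set does, at 20.4 and 24.4 CPM in the treated knockout, 9.57 and 7.21 CPM in the DMSO knockout and 19.2 and 17.7 CPM in DMSO Cal27. COL1A1 and COL1A2 carried most of it, PDGFRA and DCN stayed below 1 CPM in these libraries, and the part of that sum in the results was not tested. The 6 immune markers summed to 134 and 123 CPM in the treated knockout, 106 and 110 CPM in the DMSO knockout and 58.5 and 56.4 CPM in DMSO Cal27. CD68 and CD14 made up most of this, MS4A1 was at 0 and CD3E, PTPRC and LYZ were near 0. The 4 endothelial markers summed to 26.4 and 29 CPM in the treated knockout, 23 and 20.7 CPM in the DMSO knockout and 17 and 16.6 CPM in DMSO Cal27, and their part was not tested.

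Return did not mean a return to one level. In 53 of the 95 genes both treated libraries lay above both DMSO Cal27 libraries, in 22 both lay below, and in 20 the groups overlapped. Among all 10975 genes of at least 3 CPM, the treated knockout lay wholly above in 42.9% and wholly below in 34.6%. The mean of the treated knockout was at least 2-fold that of DMSO Cal27 in 21 of the 95, where 3.66% of all such genes were. Among the members of the set, the excess sat more in those of the families, with 10 of 16 family members and 11 of 79 others past 2-fold. This difference was not tested. Both DMSO knockout libraries lay below both DMSO Cal27 libraries in 95 of 95 (27.6% of all such genes), and both treated libraries above both DMSO knockout libraries in 95 of 95 (35.1%). The rule used these contrasts, so these counts carry no weight. The median member stood at 122% of DMSO Cal27 in the treated and 23% in the DMSO knockout. In bulk RNA, fewer cells with a transcript and less of it per cell cannot be told apart.

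**Figure D1:**
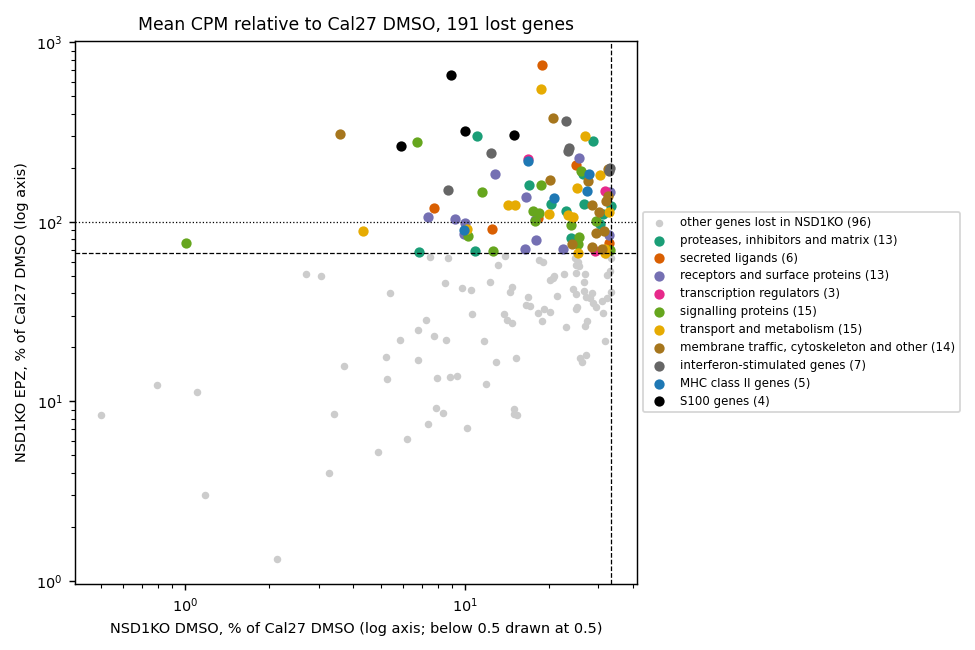
Each coloured point is 1 of the 95 genes and each grey point 1 of the 96 lost but not returned, with the DMSO knockout (horizontal) and the treated knockout (vertical) as percentages of DMSO Cal27, both on logarithmic axes and from means of 2 libraries. Dashed lines are the limits of the rule, the dotted line is 100%, and CD70, at 745% in the treated knockout, is the highest point.

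Genes on either side of the limits had nearly equal values. At the 3 CPM limit TCIM, COPZ2 and STRA6 were just inside, at 3.05, 3.08 and 3.08 CPM in DMSO Cal27, and ASAP3, PPM1L and SIDT1 just outside, at 2.97, 2.94 and 2.87 CPM. At the loss limit MMP1, IL18R1 and IRF7 kept 33.2%, 33.0% and 33.0% in the DMSO knockout, whereas RGS16, CEP126 and ATP8A1, which were left out, kept 33.7%, 33.7% and 33.8%. At the return limit ATP2C2, EHHADH and LOXL4 reached 66.9%, 67.0% and 67.6% in the treated knockout, and MAP2K6, DUSP9 and IFNLR1 reached 65.9%, 65.2% and 64.7%. Leaving out 1 of the 6 libraries at a time gave sets of 86 to 101 genes, and 58 of the 95 stayed in all 6 of these sets, 43 of them outside the families. Members absent from 1 or more of these sets were A4GALT, ATL1, ATP2C2, CD38, CEP85L, COPZ2, CPM, DUOXA1, DUSP23, EHHADH, ETV7 and FLRT3. Also absent were GJB6, HOXC10, IKZF1, IL18R1, IQCA1, IRF7, LOXL4, MMP1, NOD2, NREP, PAG1, PLBD1 and PPP2R2C. RECK, RIMS3, RNF182, SHISAL1, SRPX, STRA6, SYNE1, SYT7, TCIM, TMOD2, WNK2 and WNT3A completed this list.

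Proteases, their inhibitors and matrix proteins made up 13 members, with a median of 122% in the treated and 23.9% in the DMSO knockout, relative to DMSO Cal27. The treated libraries lay wholly above DMSO Cal27 in 7, wholly below in 3 and overlapped it in 3. The 3 inhibitors of serine or cysteine proteases, PI3, SERPINB3 and SERPINE2, all stood above DMSO Cal27. PI3 encodes elafin, a secreted inhibitor of neutrophil elastase made by keratinocytes. It was counted at 169 and 177 CPM in the treated knockout, 6.38 and 6.26 CPM in the DMSO knockout and 60.7 and 53.9 CPM in DMSO Cal27. All groups were apart, and the treated mean was 3.01-fold (95% counting interval 2.86 to 3.2) that of DMSO Cal27. SERPINB3, squamous cell carcinoma antigen, an intracellular inhibitor of cysteine proteases, was counted at 252 and 244 CPM in the treated knockout, 25.4 and 25.1 CPM in the DMSO knockout and 89.7 and 85.5 CPM in DMSO Cal27. The treated libraries again stood highest. SERPINB4 is a near-identical copy, so reads can be split between the genes and the SERPINB3 values are uncertain. SERPINE2, protease nexin 1, which inhibits thrombin and plasminogen activators, had 36.9 and 35.9 CPM in the treated knockout, 5.37 and 5.02 CPM in the DMSO knockout and 20.6 and 18.8 CPM in DMSO Cal27, with the treated libraries highest and no overlap.

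TMPRSS4, a transmembrane serine protease, was counted at 21.9 and 23.4 CPM in the treated knockout, 2.65 and 2.18 CPM in the DMSO knockout and 14.7 and 13.7 CPM in DMSO Cal27, in the same order without overlap. Its gene overlaps SMIM35. MMP1, interstitial collagenase, had 11.5 and 12 CPM in the treated knockout, 3.19 and 3.2 CPM in the DMSO knockout and 8.55 and 10.7 CPM in DMSO Cal27. Its treated libraries lay just above the DMSO Cal27 pair, which differed from each other by more than the treated pair did. MMP10, stromelysin 2, is the nearest other member on chromosome 11, 9291 bases from MMP1 (MMP10 at chr11:102770502-102780628 and MMP1 at chr11:102789919-102798160, GRCh38.p14). It was counted at 4.85 and 5.29 CPM in the treated knockout, 0.778 and 0.874 CPM in the DMSO knockout and 3.85 and 4.26 CPM in DMSO Cal27, and its groups were apart. The 300 bases around the MMP10 start are shown because they hold an AP-1 element, TGANTCA, in capitals at position -67 relative to the start, on chr11:102780579-102780878, minus strand (RefSeq, GRCh38.p14). This motif was searched on both strands and occurs in 5.81% of 15120 protein-coding promoters of the same length. A match describes letters and not a bound site.
MMP10 promoter: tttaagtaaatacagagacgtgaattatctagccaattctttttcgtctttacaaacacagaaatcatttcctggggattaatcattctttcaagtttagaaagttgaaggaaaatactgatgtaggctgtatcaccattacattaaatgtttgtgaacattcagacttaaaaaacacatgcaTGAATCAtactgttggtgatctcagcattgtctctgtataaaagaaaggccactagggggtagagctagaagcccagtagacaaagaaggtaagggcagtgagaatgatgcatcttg

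LOXL4, a lysyl oxidase that cross-links collagen, returned least in this group, with 5.19 and 7.93 CPM in the treated knockout, 0.389 and 0.946 CPM in the DMSO knockout and 10.6 and 8.81 CPM in DMSO Cal27. Both treated libraries stayed below both DMSO Cal27 libraries, while the DMSO knockout kept 6.88%. RECK, a membrane-anchored inhibitor of matrix metalloproteinases, reached 97% in the treated and 30.5% in the DMSO knockout, PCOLCE2, an enhancer of procollagen C-proteinase, 114% in the treated and 23% in the DMSO knockout, and MMP2, gelatinase A, 81.6% in the treated and 23.9% in the DMSO knockout. SRPX, a sushi repeat protein of the matrix, stood at 126% in the treated and 26.7% in the DMSO knockout, PLBD1, a phospholipase B-like lysosomal protein, at 69.2% in the treated and 10.9% in the DMSO knockout, and the gene CPM, which encodes the membrane peptidase carboxypeptidase M and overlaps MDM2, at 111% in the treated and 31.1% in the DMSO knockout. Apart from PLBD1 and MMP2, which stayed wholly below, and PCOLCE2, wholly above, the treated libraries of these overlapped DMSO Cal27.

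Secreted and surface ligands numbered 6, with a median of 112% in the treated and 18.5% in the DMSO knockout. The treated libraries lay above DMSO Cal27 in 3, below in 1 and overlapped in 2. CD70, the membrane-bound ligand of the T-cell receptor CD27, had the largest overshoot of the whole set. It was counted at 27.2 and 29 CPM in the treated knockout, 0.545 and 0.874 CPM in the DMSO knockout and 3.56 and 3.97 CPM in DMSO Cal27, a treated mean of 7.45-fold (95% counting interval 6.1 to 9.27) that of DMSO Cal27. The treated libraries stood far from both other groups. PTN, pleiotrophin, a heparin-binding growth factor, was counted at 34.1 and 30.3 CPM in the treated knockout, 2.1 and 2.11 CPM in the DMSO knockout and 26.1 and 27.9 CPM in DMSO Cal27, so its treated libraries lay slightly above DMSO Cal27 and its DMSO knockout libraries far below. IL1RN, the receptor antagonist of interleukin 1, had 18.6 and 20 CPM in the treated knockout, 2.02 and 2.62 CPM in the DMSO knockout and 9.05 and 9.53 CPM in DMSO Cal27, about 2-fold DMSO Cal27 when treated, at 208%.

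CCN3, a matricellular protein of the CCN family, returned to its parental level, with 10.3 and 11.2 CPM in the treated knockout, 2.18 and 1.53 CPM in the DMSO knockout and 10.3 and 10 CPM in DMSO Cal27, and its treated and DMSO Cal27 libraries overlapped. The WNT ligands did not overshoot. WNT5A, of the non-canonical branch, was counted at 4.09 and 4.19 CPM in the treated knockout, 0.545 and 0.582 CPM in the DMSO knockout and 3.56 and 5.49 CPM in DMSO Cal27, inside the range of the DMSO Cal27 pair when treated, and WNT3A, of the beta-catenin branch, at 3.58 and 4.32 CPM in the treated knockout, 1.63 and 1.75 CPM in the DMSO knockout and 5.56 and 4.77 CPM in DMSO Cal27, below it. The promoter windows of PTN (chr7:137343684-137343983, minus strand) and IL1RN (chr2:113117721-113118020, plus strand) are shown because each also holds the AP-1 letters TGANTCA. The letters are in capitals, first base at position 42 in PTN and -223 in IL1RN. IL1RN spans chr2:113099360-113134014, so its window surrounds a start inside the gene bounds. NREP and HLA-DPB1 hold the letters too. These windows are examples. How common the letters are in the set was not assessed, because too few members matched a promoter.
PTN promoter: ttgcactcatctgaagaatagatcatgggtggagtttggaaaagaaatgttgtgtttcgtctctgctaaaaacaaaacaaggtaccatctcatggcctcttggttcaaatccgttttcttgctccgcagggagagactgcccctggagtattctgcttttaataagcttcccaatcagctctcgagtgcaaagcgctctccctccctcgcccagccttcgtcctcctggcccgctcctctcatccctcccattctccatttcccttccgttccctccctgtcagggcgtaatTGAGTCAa
IL1RN promoter: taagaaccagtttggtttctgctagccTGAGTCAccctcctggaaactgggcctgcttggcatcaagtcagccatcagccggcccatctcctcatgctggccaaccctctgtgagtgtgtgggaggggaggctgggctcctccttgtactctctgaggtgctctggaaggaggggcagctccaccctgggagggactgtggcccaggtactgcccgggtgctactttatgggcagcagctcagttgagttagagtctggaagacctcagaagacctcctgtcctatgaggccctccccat

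Receptors and surface proteins formed 13 members with a median of 103% in the treated and 16.6% in the DMSO knockout. The treated libraries lay above DMSO Cal27 in 4, below in 4 and overlapped in 5. S1PR3, a G protein-coupled receptor of sphingosine 1-phosphate, was counted at 13.5 and 11 CPM in the treated knockout, 1.32 and 1.16 CPM in the DMSO knockout and 11.8 and 12.9 CPM in DMSO Cal27. The DMSO knockout libraries were lowest, and the treated libraries overlapped DMSO Cal27. VANGL2, a core protein of planar cell polarity, followed the same pattern with 5.53 and 7.42 CPM in the treated knockout, 0.7 and 0.801 CPM in the DMSO knockout and 7.26 and 7.87 CPM in DMSO Cal27. STRA6, the receptor that takes up retinol from its binding protein, had 4 and 2.58 CPM in the treated knockout, 0.311 and 0.146 CPM in the DMSO knockout and 2.99 and 3.18 CPM in DMSO Cal27, also overlapping. The gene overlaps CCDC33.

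Overshoot among receptors was largest for PTPRR, a receptor-type tyrosine phosphatase, with 13.8 and 11.7 CPM in the treated knockout, 1.4 and 1.46 CPM in the DMSO knockout and 5.41 and 5.78 CPM in DMSO Cal27, and for the sorting receptor SORT1, with 11.7 and 9.74 CPM in the treated knockout, 0.467 and 1.02 CPM in the DMSO knockout and 6.05 and 5.56 CPM in DMSO Cal27. Neither group of treated libraries overlapped DMSO Cal27. IL18R1, the ligand-binding chain of the interleukin 18 receptor, and NOD2, an intracellular sensor of bacterial muramyl dipeptide, also stood above it. IL18R1 was at 146% in the treated and 33% in the DMSO knockout, and NOD2 at 137% in the treated and 16.6% in the DMSO knockout. CD24, a small lipid-anchored surface protein, stayed below DMSO Cal27 with 10.3 and 8.9 CPM in the treated knockout, 2.26 and 2.11 CPM in the DMSO knockout and 10.9 and 13.4 CPM in DMSO Cal27, as did CD38, a surface enzyme that degrades NAD (70.6% in the treated and 22.4% in the DMSO knockout), the adhesion protein FLRT3 (71% in the treated and 16.3% in the DMSO knockout) and the shisa-family protein SHISAL1 (84.2% in the treated and 32.7% in the DMSO knockout). FLRT3 lies within MACROD2. The transmembrane protein TMEM98 stood at 104% in the treated and 9.19% in the DMSO knockout and the sushi-domain protein SUSD4 at 103% in the treated and 17.9% in the DMSO knockout, both overlapping DMSO Cal27.

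Outside the families 3 members encode transcription regulators, and IRF7 is a further one among the interferon-stimulated members. HOXC10, a homeobox factor of the HOXC cluster, was counted at 7.66 and 7.03 CPM in the treated knockout, 3.27 and 2.91 CPM in the DMSO knockout and 10.1 and 11.1 CPM in DMSO Cal27, with every treated library below every DMSO Cal27 library. ETV7, a repressor of the ETS family, had 11.7 and 11.1 CPM in the treated knockout, 2.49 and 2.33 CPM in the DMSO knockout and 8.12 and 7.15 CPM in DMSO Cal27, with the treated libraries highest. IKZF1 encodes Ikaros, a zinc-finger factor of lymphoid development. It had 7.66 and 6.51 CPM in the treated knockout, 0.7 and 0.364 CPM in the DMSO knockout and 1.57 and 4.77 CPM in DMSO Cal27. Its DMSO Cal27 libraries differed about 3-fold from each other, and the lower one lay at 1.57 CPM. IKZF1, HOXC10, ETV7 and IRF7 were each among the members that dropped out of the set when a library was left out.

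**Figure D2:**
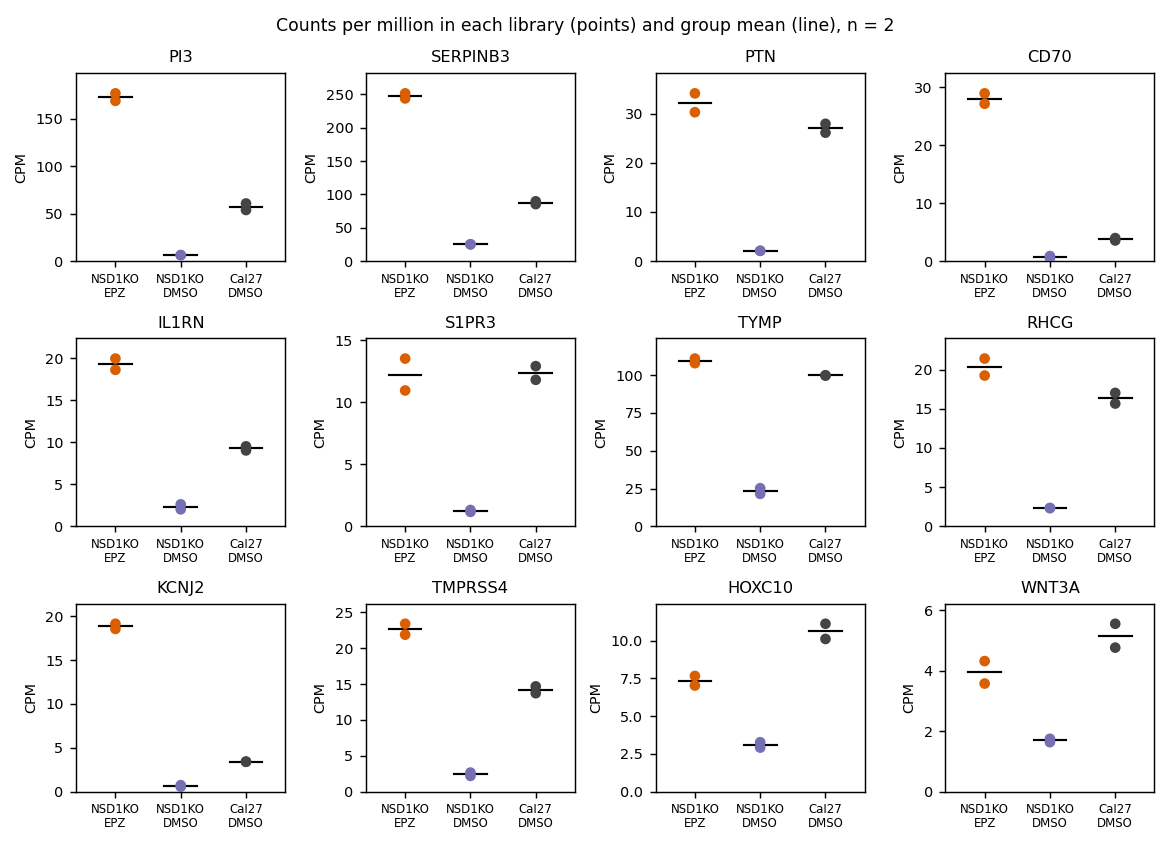
CPM on linear axes for 12 members, with the treated knockout at the left, the DMSO knockout in the middle and DMSO Cal27 at the right of each panel; points are single libraries, 2 per group, and lines are means. CD70, PI3 and KCNJ2 stand above DMSO Cal27 in the treated knockout, S1PR3 overlaps it, and HOXC10 and WNT3A stay below it.

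Signalling proteins gave 15 members, with a median of 101% in the treated and 18.4% in the DMSO knockout, so the middle member returned to its parental level. The treated libraries lay above DMSO Cal27 in 6, below in 5 and overlapped in 4. Several act next to the RAS-MAPK, PI3K and cyclic AMP pathways. PIK3AP1 encodes BCAP, an adaptor that recruits phosphoinositide 3-kinase. It was counted at 14 and 13.7 CPM in the treated knockout, 0.156 and 0.51 CPM in the DMSO knockout and 5.48 and 4.4 CPM in DMSO Cal27, from 9 reads in the DMSO knockout libraries together. The treated libraries stood highest, at 280.1% of DMSO Cal27. TNIK, a kinase that acts with TCF4 in WNT signalling, had 13.3 and 12.6 CPM in the treated knockout, 1.01 and 1.02 CPM in the DMSO knockout and 7.55 and 10.1 CPM in DMSO Cal27, in the same order. MAPK8IP2, a scaffold of the JNK pathway, had 9.71 and 8.83 CPM in the treated knockout, 1.79 and 1.02 CPM in the DMSO knockout and 8.62 and 7.44 CPM in DMSO Cal27, with a smaller gap between treated and parental libraries.

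KSR1, a scaffold of the RAF-MEK-ERK cascade, was counted at 8.77 and 10.3 CPM in the treated knockout, 1.48 and 0.728 CPM in the DMSO knockout and 5.7 and 6.14 CPM in DMSO Cal27, and the treated pair exceeded DMSO Cal27. A further 4753 bases along chromosome 17 lies LGALS9, a member on the interferon list that encodes galectin 9 (KSR1 at chr17:27456448-27626435 and LGALS9 at chr17:27631188-27649560, GRCh38.p14, both on the plus strand). LGALS9 had 19.8 and 20.6 CPM in the treated knockout, 0.934 and 1.38 CPM in the DMSO knockout and 12.5 and 14.2 CPM in DMSO Cal27, so the treated libraries of both neighbours exceeded DMSO Cal27, at 161% and 151%. LGALS9 has near-identical copies elsewhere on the chromosome, so its counts are uncertain. Their promoter windows are shown side by side because they differ in composition. That of KSR1 (chr17:27456198-27456497, plus strand) holds 40 CG dinucleotides, in capitals, and that of LGALS9 (chr17:27630938-27631237, plus strand) 2. LGALS9 instead holds the core letters of the interferon-stimulated response element (GAAA, 2 of any base, GAAA) on the opposite strand, in capitals at position -9, which occur on either strand in 3.19% of the 15120 promoters.
KSR1 promoter: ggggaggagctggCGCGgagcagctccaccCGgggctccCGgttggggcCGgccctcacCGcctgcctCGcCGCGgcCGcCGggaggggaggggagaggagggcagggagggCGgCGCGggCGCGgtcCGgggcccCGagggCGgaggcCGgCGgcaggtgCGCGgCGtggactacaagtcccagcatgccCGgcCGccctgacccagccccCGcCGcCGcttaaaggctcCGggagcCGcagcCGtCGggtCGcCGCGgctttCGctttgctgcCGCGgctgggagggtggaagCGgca
LGALS9 promoter: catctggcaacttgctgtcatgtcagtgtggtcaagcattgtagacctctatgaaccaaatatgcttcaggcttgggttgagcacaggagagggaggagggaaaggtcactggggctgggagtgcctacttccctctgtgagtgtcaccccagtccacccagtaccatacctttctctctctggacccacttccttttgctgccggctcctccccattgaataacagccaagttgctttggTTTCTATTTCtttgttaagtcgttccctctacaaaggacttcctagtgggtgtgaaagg

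WNK2, a kinase of the WNK family, returned in part, with 9.02 and 7.09 CPM in the treated knockout, 1.63 and 1.31 CPM in the DMSO knockout and 12.3 and 11.1 CPM in DMSO Cal27. SIPA1L2, which has a RAP GTPase-activating domain, stood at 82.1% in the treated and 25.7% in the DMSO knockout, PRKAA2, a catalytic subunit of AMP-activated kinase, at 83% in the treated and 10.3% in the DMSO knockout, and DUSP23, a dual-specificity phosphatase, at 69.8% in the treated and 32.9% in the DMSO knockout. PPP2R2C, a regulatory subunit of protein phosphatase 2A, completed the 5 whose treated libraries lay below DMSO Cal27, with 75.3% in the treated and 25.4% in the DMSO knockout. RNF182, a RING-finger ubiquitin ligase, was the deepest loss of all, with no read in one DMSO knockout library and 1 read in the other. It had 3.49 and 2 CPM in the treated knockout, 0 and 0.0728 CPM in the DMSO knockout and 3.99 and 3.25 CPM in DMSO Cal27. NEURL1B, a ubiquitin ligase that acts on Notch ligands (193% in the treated and 26% in the DMSO knockout), and RAPGEF4, an exchange factor activated by cyclic AMP (113% in the treated and 18.4% in the DMSO knockout), lay above. FGD1, an exchange factor for CDC42 that overlaps TSR2 (96.3% in the treated and 24% in the DMSO knockout), PKIG, an inhibitor of protein kinase A (101% in the treated and 17.9% in the DMSO knockout), and PAG1, an adaptor that recruits the kinase CSK (101% in the treated and 29.5% in the DMSO knockout), overlapped DMSO Cal27 together with RNF182.

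Transport and metabolism also counted 15 members, with a median of 111% in the treated and 24.4% in the DMSO knockout. The treated libraries lay above DMSO Cal27 in 8, below in 4 and overlapped in 3. KCNJ2, the inward-rectifier potassium channel Kir2.1, was counted at 18.6 and 19.2 CPM in the treated knockout, 0.545 and 0.728 CPM in the DMSO knockout and 3.42 and 3.39 CPM in DMSO Cal27, 5.54-fold (95% counting interval 4.45 to 6.98) DMSO Cal27 when treated. CYP4X1, a cytochrome P450, had 11.8 and 10.9 CPM in the treated knockout, 1.17 and 0.874 CPM in the DMSO knockout and 3.99 and 3.61 CPM in DMSO Cal27, 299% of DMSO Cal27. Both stood apart from every other library. TYMP, thymidine phosphorylase, by contrast returned close to its parental level, with 108 and 111 CPM in the treated knockout, 25.2 and 21.5 CPM in the DMSO knockout and 99.6 and 99.9 CPM in DMSO Cal27. It overlaps SCO2, whose reads may be counted with it. RHCG, an ammonia transporter of differentiated squamous epithelium, had 19.2 and 21.4 CPM in the treated knockout, 2.33 and 2.33 CPM in the DMSO knockout and 17 and 15.7 CPM in DMSO Cal27, and ALDH3B2, an aldehyde dehydrogenase, 10.4 and 10.5 CPM in the treated knockout, 1.17 and 1.38 CPM in the DMSO knockout and 8.4 and 8.52 CPM in DMSO Cal27. For both, the treated libraries lay moderately above DMSO Cal27.

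A4GALT, the synthase of the glycolipid Gb3, stood at 183% in the treated and 30.5% in the DMSO knockout, PAPSS2, which makes the sulfate donor PAPS, at 154% in the treated and 25.1% in the DMSO knockout, and the methionine sulfoxide reductase MSRB3 at 111% in the treated and 20% in the DMSO knockout. DUOXA1, which matures the hydrogen peroxide-producing oxidase DUOX1 and overlaps DUOXA2, was at 113% in the treated and 32.6% in the DMSO knockout, overlapping DMSO Cal27. CA12, a membrane-bound carbonic anhydrase, had 4.34 and 3.48 CPM in the treated knockout, 0.233 and 0.146 CPM in the DMSO knockout and 3.77 and 4.98 CPM in DMSO Cal27. This was the deepest loss in this group, but it rests on 3 and 2 reads in the DMSO knockout libraries. SLC27A2, a very long-chain acyl-CoA synthetase, stood at 106% in the treated and 24.4% in the DMSO knockout. The 4 that stayed below were EHHADH, an enzyme of peroxisomal fatty acid oxidation (67% in the treated and 31.7% in the DMSO knockout), the gap junction protein GJB6 (70.9% in the treated and 31.8% in the DMSO knockout), NPL, which breaks down sialic acid (91.6% in the treated and 10.2% in the DMSO knockout), and ATP2C2, a calcium pump of the secretory pathway (66.9% in the treated and 25.3% in the DMSO knockout).

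The remaining 14 members act in membrane traffic, the cytoskeleton and elsewhere, with a median of 127% in the treated and 28.9% in the DMSO knockout. The treated libraries lay above DMSO Cal27 in 8, below in 4 and overlapped in 2. TMTC1, an O-mannosyltransferase of the endoplasmic reticulum, was counted at 19.8 and 17.6 CPM in the treated knockout, 1.09 and 0.946 CPM in the DMSO knockout and 4.7 and 5.13 CPM in DMSO Cal27, 3.81-fold (95% counting interval 3.12 to 4.6) DMSO Cal27 when treated. TCIM had 10 and 8.77 CPM in the treated knockout, 0 and 0.218 CPM in the DMSO knockout and 2.85 and 3.25 CPM in DMSO Cal27, with no read in one DMSO knockout library. C12orf75 had 34.1 and 36.9 CPM in the treated knockout, 12.9 and 11.1 CPM in the DMSO knockout and 41.2 and 40.4 CPM in DMSO Cal27 and stayed below its parental level, whereas NREP, at 29.1 and 28.8 CPM in the treated knockout, 4.36 and 5.24 CPM in the DMSO knockout and 14.4 and 15.1 CPM in DMSO Cal27, went past it. The calcium sensor of exocytosis SYT7 (124% in the treated and 28.4% in the DMSO knockout), RIMS3 of the RIM family (114% in the treated and 30.3% in the DMSO knockout), atlastin 1, ATL1 (131% in the treated and 32.1% in the DMSO knockout), and the actin-capping TMOD2 (168% in the treated and 27.6% in the DMSO knockout) all averaged above DMSO Cal27. Nesprin 1, SYNE1 (72.3% in the treated and 28.4% in the DMSO knockout), and the COPI coat subunit COPZ2 (75.2% in the treated and 24.2% in the DMSO knockout) stayed below. TUSC1 (171% in the treated and 20.2% in the DMSO knockout), C7orf31 (139% in the treated and 32.3% in the DMSO knockout), IQCA1 (70.5% in the treated and 30.9% in the DMSO knockout) and CEP85L (88.7% in the treated and 31.3% in the DMSO knockout) were the others. RIMS3, ATL1, SYNE1 and CEP85L overlap NFYC, MAP4K5, ESR1 and PLN. In all, 15 of the 95 members overlap another protein-coding gene in RefSeq, and since the strand setting of the counting is not given, reads of such genes cannot be assigned with certainty.

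**Figure D3:**
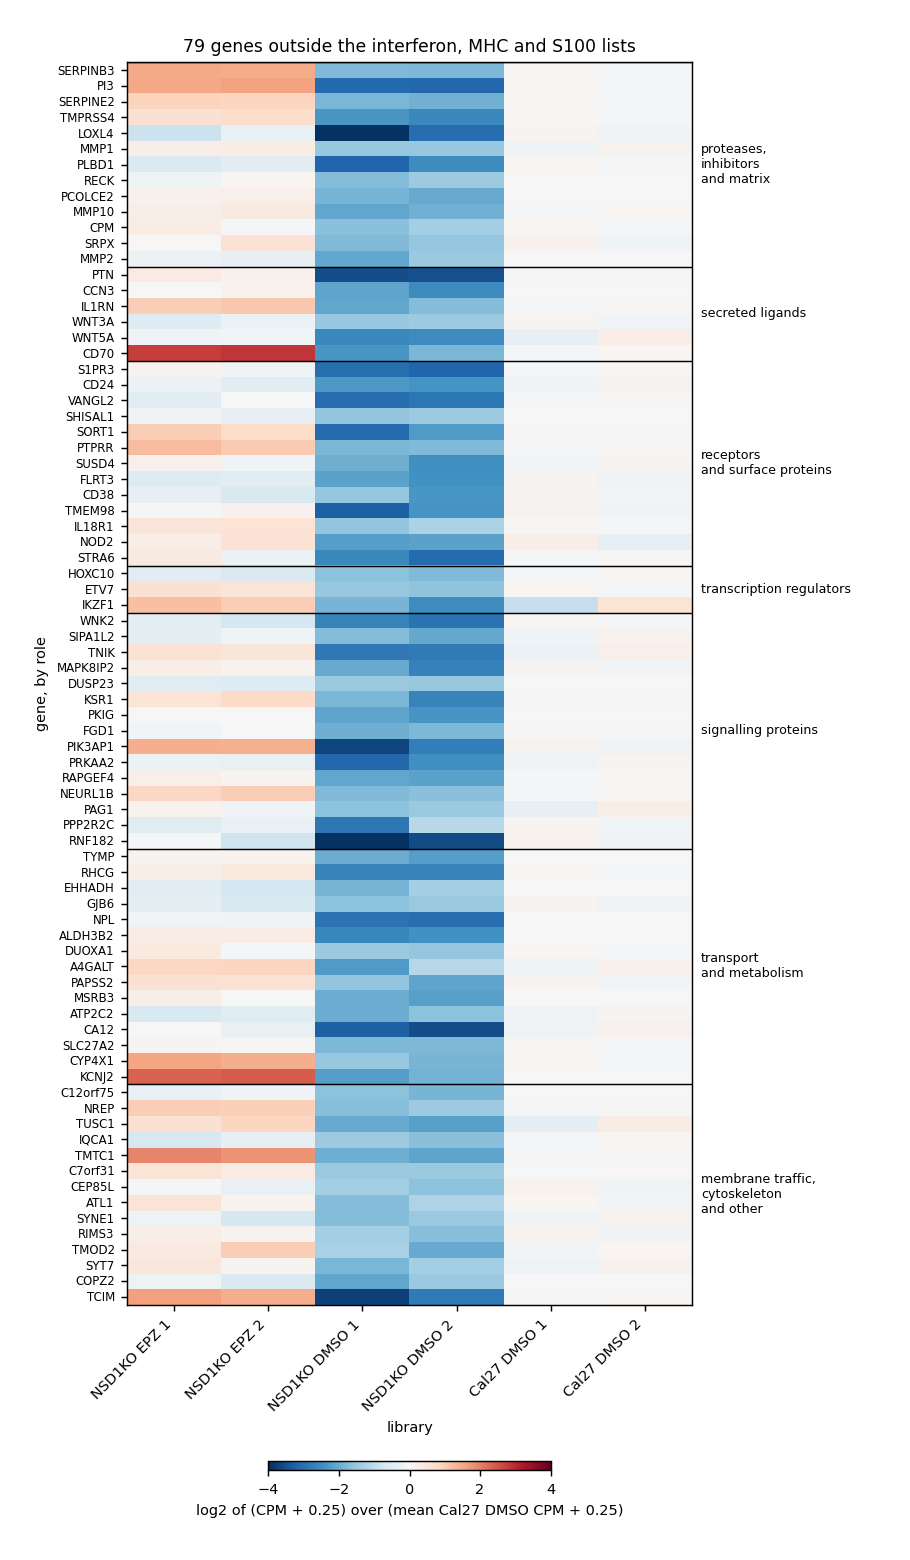
The 79 members outside the families, 1 row each, grouped by role, in the 6 libraries with the treated knockout at the left and DMSO Cal27 at the right. Colour is log2 of CPM + 0.25 over the mean of DMSO Cal27 + 0.25, limited to -4 and 4. Rows turn blue in the DMSO knockout by the rule, and in the treated knockout run from pale blue (LOXL4, WNK2) to red (CD70, KCNJ2, TMTC1).

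Both treated libraries lay above both DMSO Cal27 libraries in 15 of the 16 family members, with HLA-DQB1 overlapping, and in 38 of the 79 others. The difference was not tested. S100A9 and S100A8 form calprotectin. S100A9 was counted at 2307 and 2338 CPM in the treated knockout, 118 and 109.9 CPM in the DMSO knockout and 758 and 766 CPM in DMSO Cal27, and S100A8 at 501 and 524 CPM in the treated knockout, 16 and 15.9 CPM in the DMSO knockout and 157 and 161 CPM in DMSO Cal27. S100A7A reached 659.7% of DMSO Cal27 in the treated knockout, second to CD70 among all members, with 47.5 and 47.6 CPM in the treated knockout, 0.778 and 0.51 CPM in the DMSO knockout and 7.19 and 7.22 CPM in DMSO Cal27, although S100A7 is a near copy and S100A8 overlaps it, so the division of reads is uncertain. Of the interferon-stimulated members IFI27 had 1348 and 1419.6 CPM in the treated knockout, 134 and 125 CPM in the DMSO knockout and 567 and 546 CPM in DMSO Cal27, OAS2, a sensor of double-stranded RNA, 503 and 513 CPM in the treated knockout, 87.4 and 86.2 CPM in the DMSO knockout and 266 and 263 CPM in DMSO Cal27, and IFI6 537 and 575 CPM in the treated knockout, 30 and 26.7 CPM in the DMSO knockout and 226 and 233 CPM in DMSO Cal27. MX2, IFI44L, IRF7 and LGALS9 followed the same order, at 366%, 258%, 200.1% and 151% of DMSO Cal27 when treated. The MHC class II members HLA-DRB1, HLA-DPA1, HLA-DPB1, HLA-DMB and HLA-DQB1 stood at 149%, 217%, 135%, 186% and 90.5%.

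The untreated pair was not used by the rule and gives a separate look at the low level, though with 1 library each it has no replicate check and no test across samples. Of the 95 members 87 were lower in the untreated knockout than in untreated Cal27, where 38.3% of the 10975 genes were, and 59 stood at 1/3 or less, where 2.82% did. Outside the families the counts were 74 and 48 of 79, and within them 13 and 11 of 16. The median log2 difference was -2.04 (95% order-statistic interval over genes, which are not independent, -2.57 to -1.60) for the members and 0.10 for all 10975 genes. The 96 genes lost but not returned were lower in 91 cases, at 1/3 or less in 75, with a median of -2.80, and the difference between the sets was not tested. The titles name the knockout and the parental line alike in both settings and give no clone or passage. The untreated pair was thus not taken as an independent knockout. The exact 95% counting interval of the ratio lay below 1 in 75 members, included 1 in 18 and lay above 1 in 2. The scaling moved the background of this pair. With TMM factors over the 10 libraries 49.9% of the 10975 genes were lower, with a median log2 difference of 0.00, while 89 members were lower, with a median of -2.13, and 60 stood at 1/3 or less. Markers moved as well. The squamous sum was 4679 CPM in the untreated knockout against 24140 CPM in untreated Cal27, with KRT14 at 47.4 CPM in the untreated knockout against 6557 CPM in untreated Cal27. CDH1 and EPCAM went the other way, at 644 and 266 CPM in the untreated knockout against 284 and 178 CPM in untreated Cal27. The endothelial sum was 89.9 CPM in the untreated knockout against 5.34 CPM in untreated Cal27, nearly all of it CDH5 in the knockout, at 89.4 CPM, while PECAM1 and VWF stayed below 1 CPM there. The immune sum was 141 CPM in the untreated knockout against 63.9 CPM in untreated Cal27, and the fibroblast sum 26.4 CPM in the untreated knockout against 25.3 CPM in untreated Cal27. The part of these sums in the results was not tested.

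Signalling proteins, transport and metabolism genes and secreted ligands were lower in every case, 15 of 15, 15 of 15 and 6 of 6. So were the membrane traffic, cytoskeleton and other group (14 of 14), interferon-stimulated members (7 of 7) and S100 members (4 of 4). The counting interval included 1 in 3 of the 15 transport and metabolism genes and in 5 of the 14 of the membrane traffic group. It lay below 1 in every member of the other groups just named. Receptors and surface proteins were lower in 11 of 13, transcription regulators in 2 of 3 and MHC class II members in 2 of 5. Proteases and matrix genes were lower in 11 of 13, and 10 of these were at 1/3 or less. MMP1 was counted at 0.519 CPM in the untreated knockout against 124 CPM in untreated Cal27 (0.417%, interval 0.208 to 0.748%), and MMP10 at 0.236 CPM in the untreated knockout against 64.1 CPM in untreated Cal27 (0.368%, interval 0.119 to 0.861%). After TCIM, which had 2 reads in the pair, these were the lowest ratios, followed by CA12, at 0.0944 CPM in the untreated knockout against 17.6 CPM in untreated Cal27 (0.537%, interval 0.0648 to 1.95%), and the connexin GJB6, at 0.142 CPM in the untreated knockout against 22.5 CPM in untreated Cal27 (0.629%, interval 0.129 to 1.85%). PI3 stood at 1.89 CPM in the untreated knockout against 86.3 CPM in untreated Cal27 (2.19%, interval 1.56 to 2.99%). PTN was at 1.51 CPM in the untreated knockout against 13.6 CPM in untreated Cal27 (11.1%, interval 7.47 to 16.1%), and S1PR3 at 0.425 CPM in the untreated knockout against 10.9 CPM in untreated Cal27 (3.89%, interval 1.76 to 7.52%). All of these low levels were as deep as, or deeper than, those with DMSO, except that of PTN, which kept 7.79% there.

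The other 8 members were not lower on column totals, and 6 were not with TMM factors over the 10 libraries, where HLA-DPA1 (97.4%) and IKZF1 (95.6%) stood below 100% and the interval of HLA-DRB1 (119%, interval 96.7 to 147%) included equality. PTPRR stood at 12.8 CPM in the untreated knockout against 6.16 CPM in untreated Cal27 (207%, interval 168 to 257%), and HLA-DRB1 at 9.81 CPM in the untreated knockout against 7.68 CPM in untreated Cal27 (128%, interval 104 to 158%). The intervals of the other 6 included equality, namely IL18R1 (159%, interval 99 to 258%), PCOLCE2 (136%, interval 98.9 to 189%), the gene CPM (127%, interval 82.9 to 195%), HLA-DPB1 (124%, interval 83.1 to 186%), HLA-DPA1 (104%, interval 79.5 to 137%) and IKZF1 (103%, interval 58.5 to 179.7%). NOD2 (93.9%, interval 70.5 to 125%) and RECK (100%, interval 76.6 to 130.3%) were nearly level. Of the 5 MHC class II members none was at 1/3 or less in the untreated pair, in contrast to 7 of 7 interferon-stimulated and 4 of 4 S100 members. None of the 3 transcription regulators outside the families was at 1/3 or less either. The MHC class II intervals included equality in 4 of 5 and lay above it in HLA-DRB1 on column totals.

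**Figure D4:**
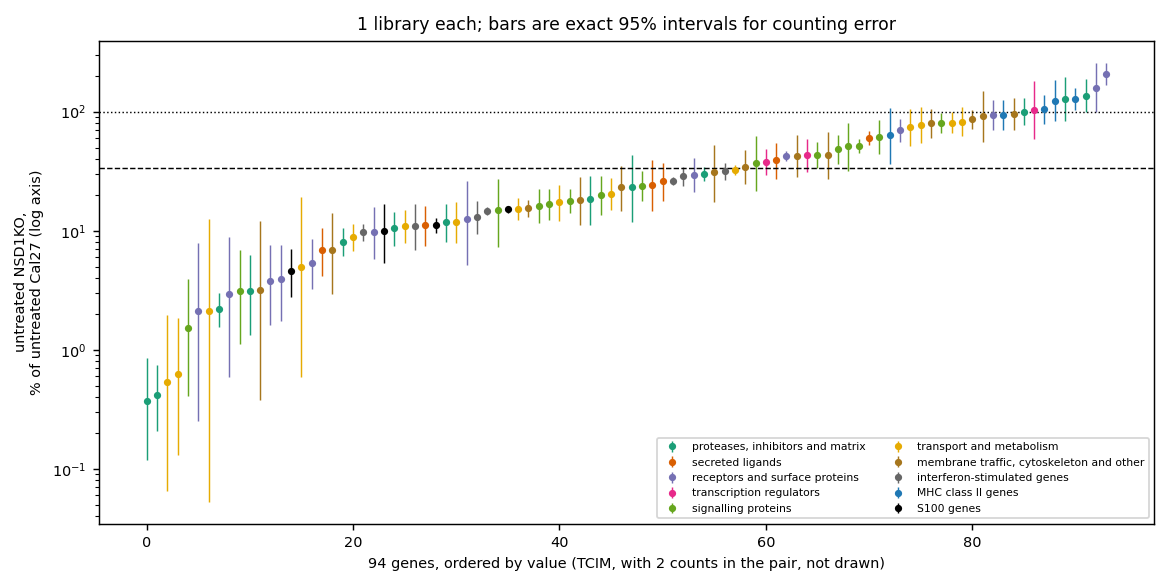
The untreated labelled knockout as a percentage of untreated Cal27 on a logarithmic axis, for 94 members in order of value and coloured by role, with 1 library each and exact 95% counting intervals; TCIM is not drawn, and the lines mark 100% and 1/3. MMP10 and MMP1 stand at the low end, and PTPRR at the high end.

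The parental level itself differed between the settings. Untreated Cal27 stood 3-fold or more above DMSO Cal27 for 7 members, where 0.993% of the 10975 genes did, and at 1/3 or less for 8, where 0.884% did. The 7 were MMP10 (15.8-fold), MMP1 (12.9-fold), CD24, CA12, ALDH3B2, PPP2R2C and NEURL1B. The 8 included HLA-DRB1, HLA-DPB1 and HLA-DQB1, together with S100A7, MX2, IFI44L, TUSC1 and TCIM, for which untreated Cal27 had 2 reads and the untreated knockout none. The groups differ in treatment and possibly in culture and library, which cannot be told apart.

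The labels state no NSD1 status for SKN3 or BICR78. NSD1 was counted at 84.3 CPM in SKN3 and 0.462 CPM in BICR78, against 144 CPM in untreated Cal27. SKN3 held 46 of the 95 members at 1/3 or less of untreated Cal27, where 8.87% of the 10975 genes were that low, and BICR78 held 32, where 4.48% were. Members were chosen for being high in Cal27, which by itself favours lower values elsewhere. In 26 members both lines were that low (2.72% of all such genes), 17 of them outside the families. PTN was counted at 0.114 CPM in SKN3 and 0.256 CPM in BICR78, against 13.6 CPM in untreated Cal27. S1PR3 stood at 0.853 CPM in SKN3 and 0.205 CPM in BICR78, against 10.9 CPM in untreated Cal27, and FLRT3 at 0 CPM in SKN3 and 0.0513 CPM in BICR78, against 4.83 CPM in untreated Cal27. The others outside the families were SERPINE2, TNIK, MAPK8IP2, TUSC1, WNT3A, WNT5A, PIK3AP1, TMTC1, CA12, CYP4X1, RNF182, KCNJ2, NOD2 and IKZF1.

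Other members were higher in these lines. SKN3 exceeded untreated Cal27 3-fold or more for 12 members (12.6%, where 6.6% of the 10975 genes did) and BICR78 for 15 (15.8%, where 3.28% did). Both lines lay above it in 23 members (24.2%), a smaller share than the 32.5% of the 10975 genes. SORT1, MSRB3, PRKAA2, PPP2R2C, HLA-DPA1 and HLA-DQB1 exceeded it 3-fold in both, as 1.69% of the 10975 genes did. SORT1 was counted at 183 CPM in SKN3 and 215 CPM in BICR78, against 9.02 CPM in untreated Cal27. MMP1 was at 0.967 CPM in SKN3 and 502 CPM in BICR78, against 124 CPM in untreated Cal27, and MMP10 at 3.64 CPM in SKN3 and 447 CPM in BICR78, against 64.1 CPM in untreated Cal27, so both neighbours were lower in SKN3 and higher in BICR78 than in untreated Cal27. PI3 stood at 19.2 CPM in SKN3 and 145 CPM in BICR78, against 86.3 CPM in untreated Cal27. In each line the members thus went both ways.

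**Figure D5:**
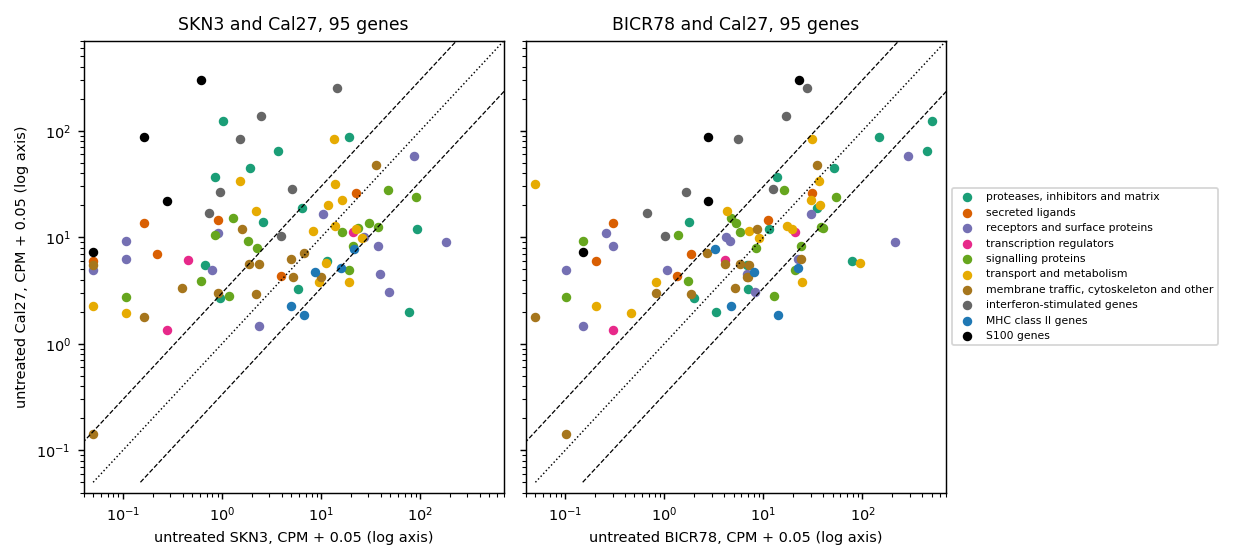
CPM + 0.05 of the 95 members in untreated SKN3 (left panel) and BICR78 (right panel) on the horizontal axis and in untreated Cal27 on the vertical axis, both logarithmic, 1 library per line. Points above the upper dashed line, 46 for SKN3 and 32 for BICR78 before the addition, are at 1/3 or less of untreated Cal27, and points below the lower dashed line exceed it 3-fold.

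Few members lie close together in the genome. Chromosome 1 held 16 members (16.8% of the set, against 10.6% of genes of at least 3 CPM) and chromosome 6 held 10 (10.5% against 5.18%), and the S100 and HLA class II clusters supplied 4 and 5 of these. Beyond those clusters, 3 neighbouring pairs lay within 500000 bases of each other, namely MMP10 with MMP1, KSR1 with LGALS9, and TYMP with MAPK8IP2 on chromosome 22, which are 70708 bases apart.

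The pathways around the members were followed with 15 gene lists, tested over all genes with edgeR. The counts of each list include its members of the set. These were chosen for their fall and return, so for them the calls are no test. A list does not hold every gene of its kind, so members of a similar role can be absent from it. Of 13241 genes tested, 16.4% rose and 19.5% fell in the DMSO knockout relative to DMSO Cal27, 25.6% rose and 23.9% fell in the treated relative to the DMSO knockout, and 26.1% were higher and 25.9% lower in the treated knockout than in DMSO Cal27. Median log2 changes over all genes were -0.01, 0.00 and 0.00. The first and second comparison share the DMSO knockout libraries, so opposite directions in them are not independent. With library size as the only scaling, the split of the first comparison was 2978 higher and 2088 lower, in place of 2169 and 2580, and that of the third 4016 and 2815, in place of 3456 and 3428.

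Secreted mucosal defence proteins, the list of PI3, fell in 10 and rose in 4 of 18 cases in the DMSO knockout (median log2 -0.72), and all 18 rose in the treated knockout (median 2.57). Against DMSO Cal27 17 of 18 were higher in the treated knockout. Only PI3 on this list is a member. The iron-binding protein LCN2 rose with EPZ-6438 by 1.77 ± 0.02 (log2, SE), the mucin-like FCGBP by 6.43 ± 0.10 and the transport receptor of mucosal antibodies PIGR by 3.84 ± 0.07, but none of these had fallen in the DMSO knockout. Clade B serpins, the list of SERPINB3, fell in 6 and rose in 1 of 10 in the DMSO knockout, and rose in 8 and fell in 2 with EPZ-6438. SERPINB13 changed by -1.57 ± 0.07 and then 1.55 ± 0.07, and SERPINB1 had -0.89 ± 0.05 and 1.49 ± 0.04. SERPINB4 had -1.47 ± 0.07 and 3.76 ± 0.05, with the copy caveat of SERPINB3.

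Keratinocyte differentiation genes fell widely but did not come back as a list. In the DMSO knockout 14 of 19 fell and 1 rose (median -2.51), and with EPZ-6438 8 rose and 1 fell (median 0.64), while 12 of 19 were lower and 3 higher in the treated knockout than in DMSO Cal27 (median -1.13). The protease KLK5 changed by -3.60 ± 0.13 (log2, SE) in the DMSO knockout and 1.34 ± 0.17 with EPZ-6438, and KLK10 by -2.51 ± 0.18 and 0.78 ± 0.21. ABCA12, a lipid transporter of the skin barrier, was higher in both comparisons, by 0.79 ± 0.12 and 1.16 ± 0.10. RHCG is the member on this list.

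The list of transporters, channels and lipid enzymes fell in 22 and rose in 5 of 40 (median -0.45) in the DMSO knockout. In the treated knockout 31 rose with none falling (median 1.30). The list holds none of the 15 members grouped above under transport and metabolism. PTGES, prostaglandin E synthase, had -0.79 ± 0.06 and 2.82 ± 0.05. The retinol dehydrogenase RDH10 had -0.26 ± 0.10 and 3.48 ± 0.06, and the cyclooxygenase PTGS2 0.39 ± 0.10 and 3.31 ± 0.06. The matrix and adhesion list, with 3 members of the set, was divided, 16 falling and 11 rising of 38 in the DMSO knockout and 18 rising and 12 falling with EPZ-6438. MMP13 changed by -3.93 ± 0.08 in the DMSO knockout and 1.88 ± 0.11 with EPZ-6438 (log2, SE), MMP7 had -1.26 ± 0.12 and 2.80 ± 0.10, and the protocadherin PCDH1 -0.52 ± 0.08 and 1.49 ± 0.07. The list of growth factor and morphogen ligands, with WNT5A as its only member of the set, leaned the other way. Of 44 genes 22 rose and 14 fell in the DMSO knockout, and 19 fell and 15 rose with EPZ-6438. PTN, WNT3A and CCN3 are members that this list does not hold. The EGF-family ligand NRG1 changed by 0.17 ± 0.04 in the DMSO knockout and -2.91 ± 0.05 with EPZ-6438. FGFBP1, which releases fibroblast growth factors, had -0.22 ± 0.04 and -1.27 ± 0.05, and GDF15 0.90 ± 0.07 and 1.65 ± 0.05, the same direction in both comparisons.

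TNF-family and cytokine receptor genes rose in 29 and fell in 6 of 38 with EPZ-6438, after 16 rising and 10 falling in the DMSO knockout, and CD70 is the member among them. TNFSF10, which encodes TRAIL, had -0.93 ± 0.04 in the DMSO knockout and 1.91 ± 0.04 with EPZ-6438, the death receptor TNFRSF21 0.70 ± 0.03 and -0.87 ± 0.03, and the interleukin 7 receptor IL7R 0.48 ± 0.04 and -1.20 ± 0.05. Interleukin 1 and 36 family genes fell in 6 and rose in 2 of 12 in the DMSO knockout, then rose in 6 and fell in 2 with EPZ-6438. The 12 include 2 members, IL1RN and IL18R1, whose fall and return the rule had fixed. IL1R1 had -0.43 ± 0.09 and 0.99 ± 0.08. IL1A and IL1B both rose in the DMSO knockout, by 1.03 ± 0.02 and 0.56 ± 0.03, opposite to their antagonist IL1RN. The list of pattern recognition receptors and related genes, with NOD2, fell in 10 and rose in 4 of 24 in the DMSO knockout. With EPZ-6438 12 rose and 3 fell. CD14 changed by 1.78 ± 0.10, CLEC2B by 1.08 ± 0.08 and CASP4 by 0.39 ± 0.03. In the DMSO knockout CLEC2B had -0.26 ± 0.08, while CD14 and CASP4 were not called. Complement and coagulation genes, a list without members of the set, rose in 21 and fell in 3 of 27 with EPZ-6438. This followed 11 rising and 6 falling in the DMSO knockout. Complement factor CFB changed by 2.25 ± 0.03, C1S by 1.27 ± 0.04, and tissue factor, F3, by -0.99 ± 0.03.

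Lineage transcription factors, with HOXC10 as the member, fell in 24 and rose in 10 of 70 in the DMSO knockout, and rose in 31 and fell in 9 with EPZ-6438. The epithelial ETS factor ELF3 had -1.35 ± 0.08 and 1.86 ± 0.07, the inhibitor of differentiation ID1 -1.35 ± 0.06 and 1.02 ± 0.06, and BHLHE40 -0.41 ± 0.06 and 0.95 ± 0.05. The genes of PRC2, the NSD family and related histone enzymes gave 7 rising and 1 falling of 22 in the DMSO knockout and 2 rising and 4 falling with EPZ-6438. NSD2 had 0.38 ± 0.04 and -0.31 ± 0.04, the demethylase of lysine 27 KDM6A changed with EPZ-6438 by -0.48 ± 0.08 and KDM4B by 0.45 ± 0.08. For the families kept short here, interferon-stimulated genes fell in 71 and rose in 4 of 89 in the DMSO knockout and rose in 84 and fell in 1 with EPZ-6438, MHC and antigen presentation genes 15 and 5 of 33 and then 32 and 0, and S100 genes 12 and 0 of 14 and then 9 and 1. They hold 7, 5 and 4 members, which are part of these counts.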

How the data were processed

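Cell line RNA was sequenced in 10 libraries. Per the labels' protocols, RNA was taken up in TRIzol and ribosomal RNA was depleted. The table deposited by the authors holds whole read counts per gene symbol, used here as they stand. The submitters' processing notes name Picard 2.23.1, featureCounts 1.6.1, HISAT2 2.1.0, CASAVA 1.7 and the build hg38. Their roles, the annotation and the strand setting were not given in the sources used here. CUT&Tag samples, 7 in number, were not analysed here.

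Libraries were grouped by title. CPM are counts over the column total, and the members follow the rule stated in the report. The members, their roles and the gene lists were chosen with earlier results of these data known, so they support nothing independently. Genes named are NSD1, members by level, by size of loss and of return, by list and by role, genes next to each limit, members not lower when untreated, and up to 3 non-members per list with the lowest adjusted p with EPZ-6438. Coordinates and promoters (250 bases before to 50 after the start) come from RefSeq, GRCh38.p14, matched by symbol. All 95 members matched a gene and 74 (77.9%) a promoter. This is below the 80% needed, so comparisons of promoter composition or motif shares over the set are void and not given.

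The 3 treated and DMSO groups entered one quasi-likelihood fit in edgeR 4.0.16 (R 4.3.3), with group as term, TMM scaling, the tool's default low-count filter and F tests. Calls required an adjusted p (Benjamini-Hochberg) below 0.05, and "rose" and "fell" are used of called genes. The fit was tested on simulated data. Log2 changes carry a standard error (SE) derived from the F test, as the size of the log2 change over the square root of F. Single-library intervals are exact 95% Poisson intervals, and those of ratios are exact and conditional on the summed counts. They cover counting error only. Log2 differences of single libraries used a prior count of 2. Alternatives included DESeq2 1.42.0, other scalings, filters and limits, a replicate block and leaving out each library.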

Additional observations from a re-analysis of the deposited data

Results flagged for a closer look

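The low level of the labelled knockout went the other way in the untreated pair for 8 members on column totals. With TMM factors over the 10 libraries this held for 6 of them, as HLA-DPA1 stood at 97.4% and IKZF1 at 95.6% of untreated Cal27. In each of the 8, both DMSO knockout libraries lay below both DMSO Cal27 libraries, as the rule requires, while the untreated knockout stood above untreated Cal27 in CPM. The difference between the settings was not tested, and the untreated pair has 1 library each. PTPRR, the receptor-type phosphatase, stood at 207% of untreated Cal27 and HLA-DRB1 at 128%, and these were the only members whose counting interval lay above equality on column totals. With TMM factors only that of PTPRR did, at 193%, and HLA-DRB1 stood at 119% (interval 96.7 to 147%). IL18R1 stood at 159%, PCOLCE2 at 136%, the gene CPM at 127%, HLA-DPB1 at 124%, HLA-DPA1 at 104% and IKZF1 at 103%, all with intervals that included equality. HLA-DRB1 and HLA-DPB1 were also at 1/3 or less of their DMSO level in untreated Cal27, with 7.68 CPM for HLA-DRB1 and 2.21 CPM for HLA-DPB1.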

How the results depend on the processing

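The size of the set followed the limits of the rule, by construction. A minimum of 1 CPM gave 179 genes and a minimum of 10 CPM gave 29. A DMSO knockout level of at most 1/2 gave 212 and of at most 1/4 gave 57. Limits met by the extreme single libraries in place of the means gave 57. The other settings kept it within 1.5 times, with 100 genes on TMM-scaled totals (91 of them shared), 115 for a return to 1/2 and 64 for a return to at least the parental level. Leaving out each library gave 86 to 101 genes, with 79 to 91 shared, 77 to 90 members of those sets lower in the untreated knockout, and medians of -2.15 to -1.91. TMM factors over the 10 libraries gave 89 members lower in the untreated knockout in place of 87, turned the direction of HLA-DPA1 and IKZF1, and moved the median log2 difference of all genes to 0.00, in place of 0.10. Genes called by edgeR numbered 4749 for the DMSO knockout against DMSO Cal27, 6564 for the treated against the DMSO knockout and 6884 for the treated knockout against DMSO Cal27. Leaving out each library gave 3463 to 4768, 5344 to 6524 and 5830 to 6808 in that order, and DESeq2 gave 3248, 4924 and 5250. Where a library was left out, the lone one of its group was assumed to vary like the others.

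Same-numbered replicates did not deviate together (correlations 0.01, 0.00 and -0.04), so they share only a number. With the replicate block the calls were 4512, 6370 and 6718, and the rule met within each number gave 65 genes. The alternatives for promoter composition were not run, because too few members matched a promoter. Depth limits members of few reads, such as RNF182, TCIM and CA12, whose DMSO knockout levels rest on 0 to 3 reads per library. STRA6 had 4 and 2 reads there, and TMEM98 had 2 and 7.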
